A study of Sus scrofa with 20 samples.

Results

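The members described here are the nuclear genes of the mitochondrial respiratory chain and of the ATP synthase, measured in the hippocampus of pigs. A gene was taken when its symbol in the platform annotation began with NDUFA, NDUFB, NDUFC, NDUFS, NDUFV, SDHA, SDHB, SDHC, SDHD, UQCR, COX4 to COX8 or ATP5, and it was represented by its brightest probe set (the group of probes on an array that reads 1 transcript), provided that the mean of this probe set over the arrays reached 5.53 on the log2 scale. The rule took 59 genes of the platform, of which 56 reached this level, out of 10313 genes with a symbol that did so. They comprised 25 genes of complex I, 3 of complex II, 2 of complex III, 8 of complex IV, 12 of complex V and 6 genes with the same prefixes that encode assembly or accessory factors rather than subunits. NDUFA4L2 was counted with complex IV despite its prefix, as a paralog of NDUFA4, which was assigned there too. NDUFAF2, with a mean of 5.86, lay just inside the level and ATP5O, with 4.41, just outside. NDUFA4 (3.18) and ATP5H (2.33) were the other genes below it.

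The study compared German Landrace pigs, labelled as adult, of a high-reactive (HR, n = 10) and a low-reactive (LR, n = 10) coping pattern, with no treatment named in the labels. Animals had been chosen as extremes of early-life struggling behaviour in the backtest, a test of how a piglet laid on its back resists, and also by their haplotypes at a locus associated with this behaviour, so coping phenotype and haplotype cannot be told apart. Total RNA of 1 piece of hippocampus per animal was hybridised to 1 Affymetrix porcine Snowball array, and the labels separate the groups otherwise only by a number in the sample titles, whose meaning is not stated and which was higher in most HR samples. The sources used here do not state sex, litter, slaughter day or array batch.

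The respiratory chain passes electrons from NADH (complex I) and succinate (complex II) over ubiquinone, complex III and cytochrome c to oxygen at complex IV. Complexes I, III and IV pump protons, and complex V, the ATP synthase, uses the resulting gradient to make ATP. Most subunits are encoded in the nucleus, a few core subunits in mitochondrial DNA, and dedicated assembly factors join them. In the brain this pathway supplies most of the ATP that neurons spend on ion pumping and synaptic transmission. The mitochondrially encoded subunits have no symbol in the platform annotation and were not analysed here.

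The 20 arrays had medians between 5.48 and 5.57 over all probe sets. HR replicate 5 and LR replicate 1 stood apart, with mean correlations to the other arrays of 0.927 and 0.938, and their correlation with each other (0.844) was the lowest of all pairs. Replicate numbers only name animals and pair none. The marker means of neurons and astrocytes were well above the level. That of 7 neuron markers ranged from 10.4 to 10.8 in HR and from 10.3 to 10.7 in LR. That of 6 astrocyte markers ranged from 10.9 to 11.4 in HR and from 10.9 to 11.3 in LR. Of 7 markers of dentate granule and pyramidal cells 6 passed the level, CALB1 being the exception. No other brain region was compared here, so these markers do not by themselves identify the hippocampus. Choroid plexus, which lies beside the hippocampus, was present to a varying degree: 5 of its 8 markers on the platform passed the level, with means from 6.47 to 7.96 in HR and from 6.40 to 7.76 in LR, while its markers AQP1, OTX2 and SLC4A5 stayed below. Of 6 striated muscle markers, ACTA1 (7.09), TNNT3 (6.06) and CKM (5.57) passed the level, and MYH1, MYH2 and MYLPF were below it. In bulk tissue of this kind, fewer cells of a type and less RNA per cell cannot be told apart.

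No member differed between HR and LR after adjustment over all 23861 probe sets tested with limma, where 0% of all probe sets did. The lowest adjusted p among the members was 0.298 (NDUFC1) and the lowest over all probe sets was 0.126. At an unadjusted p under 0.05, 4 of 56 members were higher in HR and 6 were lower, against 7.78% and 3.74% of all probe sets tested. An exact Wilcoxon test gave 3 higher and 6 lower members at the same unadjusted threshold, against 6.47% and 3.14% of all probe sets, and none after adjustment. With each array weighted by its fit in limma, 4 members (NDUFC1, NDUFB5, NDUFAF4 and NDUFS5) passed the adjusted threshold, against 3.97% of all probe sets. NDUFC1, NDUFB5, NDUFAF4 and ATP5S were the 4 higher members, and NDUFS5, NDUFAB1, NDUFV3, NDUFB1, COX5B and ATP5E the 6 lower ones. The count of lower members depended on single animals. It was 18 without LR replicate 9, 18 without HR replicate 1 and 12 without HR replicate 10, in fits where 6.32%, 6.95% and 5.30% of all probe sets were lower. It was 2 without LR replicate 3, LR replicate 6, HR replicate 2 or HR replicate 5, where 2.50% to 2.76% of all probe sets were lower, and 3 without LR replicate 2 or 4 or HR replicate 3, 6, 7, 8 or 9, where 2.76% to 4.71% were.

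Most members had small negative differences. Of the 56 members, 41 (73.2%) had a lower mean in HR than in LR, with a median log2 difference (HR minus LR) of -0.08, whereas 55.6% of the 10313 genes and 54.1% of the probe sets had a lower mean, with medians of -0.02 and -0.01. Among the 2004 genes at least as bright as the median member, 1017 were lower and the median was -0.0014. The subunits alone gave 39 lower and 11 higher means, and the 6 factors 2 lower and 4 higher. In 36 members at least 7 of the 10 HR values were under the LR median, and in 11 members at least 7 lay above it. The same counts were not made over all genes, so these 2 have no background share and only describe the members. The standard deviation of a member over the 20 arrays ran from 0.08 to 0.51 with a median of 0.20, close to the 0.21 of all genes, and the median standard error of a difference was 0.09. Only 4 members differed by more than 1.2-fold, and the highest fold was 1.37.

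**Figure D1:**
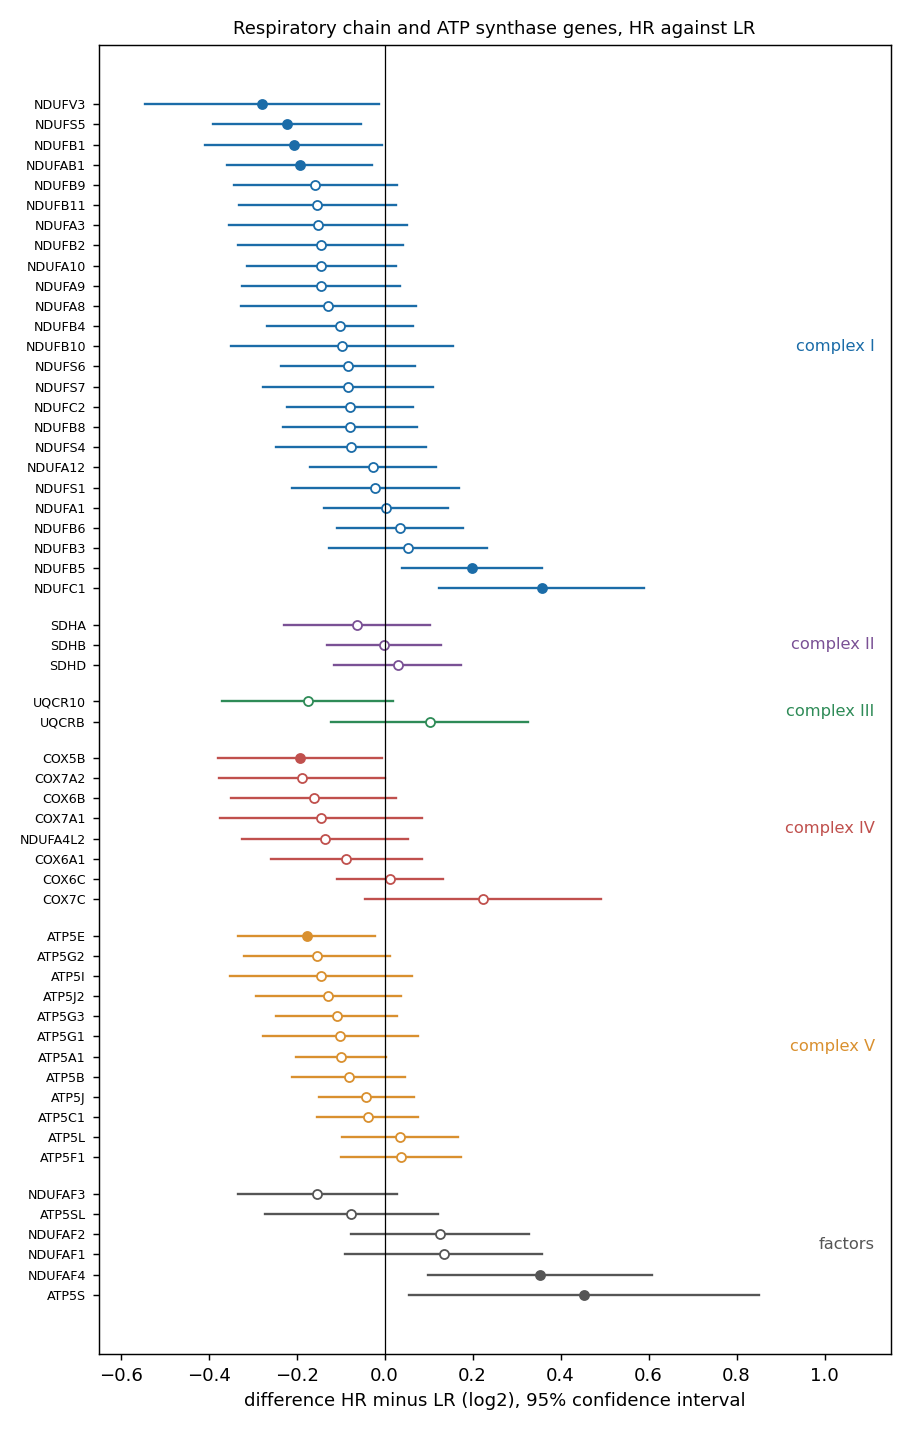
Log2 difference between HR (n = 10) and LR (n = 10) for each of the 56 members, grouped by complex, with the 95% confidence interval of the limma fit as a bar; filled points mark the 10 members with an unadjusted p under 0.05. Points lie left of 0 for 41 members, and the 4 filled points on the right are NDUFB5, NDUFC1, NDUFAF4 and ATP5S.

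Complex I, the NADH dehydrogenase that starts the chain, held 6 of these 10 members. NDUFC1 encodes a small accessory subunit of its membrane arm and lies on chromosome 8 (87695273 to 87700024 in Sscrofa11.1). Its values ran from 8.03 over a median of 8.55 to 8.997 in HR and from 7.85 over 8.21 to 8.71 in LR. The groups overlapped: HR replicate 1 (8.03) lay among the lowest LR arrays, LR replicates 7 (8.57) and 10 (8.71) among the HR arrays, and the other 9 HR arrays were above the LR median. The log2 difference was 0.36 ± 0.11 (SE), larger than the SD of 0.27 within HR and 0.26 within LR, with an unadjusted p of 0.00423 and an adjusted p of 0.298 in limma. NDUFB5, an accessory subunit further out in the membrane arm (chromosome 13, 117656411 to 117671515), ran from 8.05 over 8.40 to 8.70 in HR and from 8.10 over 8.17 to 8.49 in LR. Again 9 of 10 HR arrays exceeded the LR median and HR replicate 1 was the lowest of all. NDUFB5 differed by 0.20 ± 0.08 (limma, unadjusted p = 0.0164, adjusted p = 0.356).

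The other 4 were lower in HR. NDUFS5, an accessory subunit of the membrane arm that faces the intermembrane space (chromosome 6, 94913406 to 94919458), ran from 7.64 over 8.02 to 8.53 in HR and from 8.06 over 8.29 to 8.40 in LR. HR replicate 1 held the highest value of all 20 arrays and HR replicate 5 the lowest, and the remaining HR arrays reached only into the lower part of the LR range. The difference was -0.22 ± 0.08, against SDs of 0.22 in HR and 0.11 in LR (limma, unadjusted p = 0.0122, adjusted p = 0.339). NDUFAB1 is the mitochondrial acyl carrier protein, which is both a subunit of complex I and a carrier in mitochondrial fatty acid synthesis. It ran from 8.44 over 8.69 to 9.08 in HR and from 8.68 over 8.96 to 9.02 in LR, with 8 of 10 HR arrays below the LR median. NDUFAB1 differed by -0.19 ± 0.08 (limma, unadjusted p = 0.0231, adjusted p = 0.372). These 4 genes, NDUFC1, NDUFB5, NDUFS5 and NDUFAB1, kept an unadjusted p under 0.05 in each of the 20 fits that left out 1 array. Such fits share most of their arrays. How many of all probe sets did the same was not counted, here or for the members below.

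NDUFV3 and NDUFB1 kept an unadjusted p under 0.05 in fewer of the fits without 1 array. Their unadjusted p over all arrays lay nearer to 0.05, so this count does not measure how far the difference moved. NDUFV3, an accessory subunit of the peripheral arm near the site where NADH is oxidised, had the highest SD of the complex, 0.33 over the 20 arrays, and ran from 8.39 over 8.79 to 9.68 in HR and from 8.90 over 9.13 to 9.61 in LR. HR replicate 5 was lowest and HR replicate 1 highest, so that the HR range enclosed the LR range. Its difference of -0.28 ± 0.13 (limma, unadjusted p = 0.0404, adjusted p = 0.414) passed an unadjusted 0.05 in 8 of the 20 fits without 1 array. NDUFB1, a small subunit of the membrane arm, ran from 9.07 over 9.48 to 9.95 in HR and from 9.32 over 9.71 to 9.94 in LR, and its difference of -0.21 ± 0.10 passed in 7 of 20 (unadjusted p = 0.0450, adjusted p = 0.423 in limma).

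**Figure D2:**
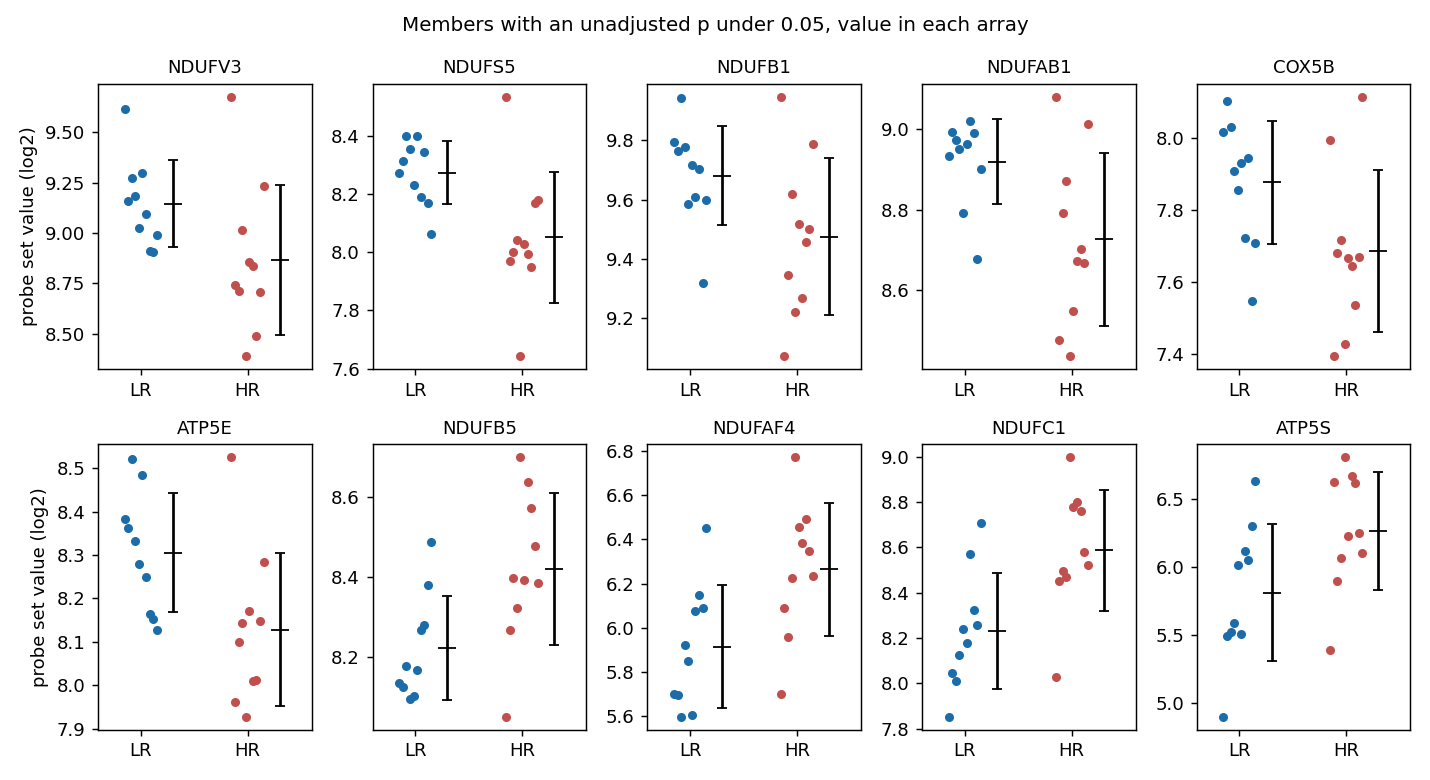
Log2 probe set value in each array for the 10 members with an unadjusted p under 0.05, LR in blue and HR in red, with the group mean and SD in black (n = 10 per group); each panel has its own vertical scale. The groups overlap in every panel, for example from 8.03 to 8.997 in HR and from 7.85 to 8.71 in LR for NDUFC1, and 1 HR point, replicate 1, is nearer to the LR than to the HR median in all 10, beyond the LR range in 6 of them.

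The remaining 19 members of complex I had differences between -0.16 (NDUFB9) and 0.05 (NDUFB3), none with an unadjusted p under 0.05. NDUFB8, the brightest probe set of the complex with a mean of 10.4, ran from 10.1 over 10.3 to 10.6 in HR and from 10.1 over 10.5 to 10.6 in LR, and the difference of -0.08 ± 0.07 was within the SD of either group. The iron-sulfur core subunits NDUFS1 and NDUFS7 differed by -0.02 and -0.08, and NDUFS4, an accessory subunit whose loss causes Leigh syndrome in humans, by -0.08. Over the 25 genes of the complex, 20 were lower in HR and 5 higher, with a median of -0.10.

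Complex II, succinate dehydrogenase, which also belongs to the tricarboxylic acid cycle, showed the smallest differences on the brightest probe sets. SDHA, the flavoprotein that oxidises succinate, ran from 10.3 over 10.5 to 10.9 in HR and from 10.3 over 10.6 to 10.9 in LR, a difference of -0.06 ± 0.08. The iron-sulfur subunit SDHB ran from 10.1 over 10.3 to 10.5 in HR and from 9.98 over 10.3 to 10.4 in LR and differed by -0.00077 ± 0.06. SDHD, a membrane anchor, ran from 7.73 over 8.09 to 8.22 in HR and from 7.71 over 8.01 to 8.27 in LR and differed by 0.03 ± 0.07. The HR and LR ranges of all 3 genes nearly coincided, and the 95% confidence intervals reached from -0.23 to 0.10 for SDHA, from -0.13 to 0.13 for SDHB and from -0.11 to 0.17 for SDHD. SDHB has 6 probe sets above the level, with differences from -0.02 to 0.02. The further probe sets of SDHA above the level had larger differences than its brightest one, -0.0904, -0.127 and -0.145, none with an unadjusted p under 0.05 in limma.

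Complex III, the cytochrome bc1 complex, was represented by 2 small subunits. UQCR10 ran from 7.94 over 8.22 to 8.63 in HR and from 7.92 over 8.47 to 8.65 in LR. Its groups spanned the same range, although 9 of 10 HR values were under the LR median, and the difference was -0.18 ± 0.09 (limma, unadjusted p = 0.0759, adjusted p = 0.468). UQCRB, a subunit close to the ubiquinone site, ran from 8.89 over 9.24 to 9.53 in HR and from 8.61 over 9.14 to 9.45 in LR. LR replicates 1 and 2 (8.62 and 8.61) gave its lowest values. UQCRB differed by 0.10 ± 0.11, less than the SD within HR (0.22) and within LR (0.28).

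In complex IV, cytochrome c oxidase, 6 of 8 members had lower means in HR and the median difference was -0.14, the lowest of the complexes. COX5B, a zinc-binding subunit on the matrix side (chromosome 3, 56630297 to 56632107), ran from 7.39 over 7.67 to 8.12 in HR and from 7.55 over 7.92 to 8.11 in LR. HR replicate 1 (7.99) lay within the upper LR range, HR replicate 10 (8.12) just above it and the other 8 HR arrays below the LR median. Its difference was -0.19 ± 0.09 (limma, unadjusted p = 0.0442, adjusted p = 0.421) and passed an unadjusted 0.05 in 5 of 20 fits without 1 array. COX6B, which sits on the side where cytochrome c docks, ran from 7.54 over 7.92 to 8.27 in HR and from 7.73 over 8.16 to 8.35 in LR, a difference of -0.16 ± 0.09 (unadjusted p = 0.0892, adjusted p = 0.479 in limma). COX6A1, the isoform found in most tissues, was the brightest probe set of the complex (10.9) and differed by -0.09 ± 0.08.

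Both isoforms of subunit 7A had lower means in HR. COX7A2 is the isoform expressed in most tissues and COX7A1 the one named for heart and skeletal muscle. COX7A2 ran from 9.65 over 9.999 to 10.4 in HR and from 9.84 over 10.2 to 10.4 in LR, with 9 of 10 HR arrays below the LR median. COX7A1 ran from 7.40 over 7.71 to 8.25 in HR and from 7.63 over 7.79 to 8.28 in LR. The differences were -0.19 ± 0.09 (limma, unadjusted p = 0.0515, adjusted p = 0.436) and -0.14 ± 0.11 (unadjusted p = 0.205, adjusted p = 0.596). Both probe sets carry the suffix that the manufacturer gives to probe sets shared by several transcripts. NDUFA4L2, the paralog of NDUFA4 that hypoxia induces in human cells, ran from 6.12 over 6.41 to 6.95 in HR and from 6.37 over 6.57 to 6.84 in LR, a difference of -0.13 ± 0.09. COX7C, a small membrane subunit, went the other way: it ran from 7.28 over 7.63 to 7.94 in HR and from 6.64 over 7.44 to 7.95 in LR, a difference of 0.22 ± 0.13 with the highest SD of the complex, 0.32, and an unadjusted p of 0.0975 (adjusted p = 0.490 in limma).

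In complex V, 10 of 12 members had lower means in HR, with a median of -0.10. ATP5E, the epsilon subunit of the central stalk (chromosome 17, 59163085 to 59174488), ran from 7.93 over 8.12 to 8.53 in HR and from 8.13 over 8.31 to 8.52 in LR. HR replicate 1 was the single HR array above the LR median. The difference was -0.18 ± 0.08 (limma, unadjusted p = 0.0273, adjusted p = 0.385), but its other 2 probe sets above the level differed by 0.38 (unadjusted p = 0.00905) and 0.05, and the mean of all 3 gave 0.08, so ATP5E has no single direction on this array.

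The alpha and beta subunits ATP5A1 and ATP5B form the catalytic head. ATP5A1 had one of the lowest spreads of the members and was the only one in which all 10 HR arrays were below the LR median. Its values ran from 11.4 over 11.5 to 11.6 in HR and from 11.5 over 11.6 to 11.7 in LR. Still, LR replicates 1, 4, 5 and 9 (11.50, 11.54, 11.58 and 11.51) lay within the HR range. ATP5A1 differed by -0.10 ± 0.05 (limma, unadjusted p = 0.0573, adjusted p = 0.445). ATP5B, the brightest of all members with a mean of 12.1, ran from 11.97 over 12.1 to 12.3 in HR and from 11.98 over 12.2 to 12.4 in LR, a difference of -0.08 ± 0.06.

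The 3 genes of the c subunit encode the same mature ring protein behind different import sequences. ATP5G1, on chromosome 12 (25110540 to 25113481), ran from 9.42 over 9.70 to 9.99 in HR and from 9.38 over 9.82 to 10.01 in LR. ATP5G2 ran from 10.2 over 10.6 to 10.8 in HR and from 10.3 over 10.7 to 10.8 in LR, and ATP5G3 from 9.25 over 9.40 to 9.60 in HR and from 9.13 over 9.53 to 9.64 in LR. All 3 had overlapping groups, with 8, 9 and 9 of 10 HR arrays below the LR median. The differences were -0.10 ± 0.09, -0.15 ± 0.08 and -0.11 ± 0.07, and ATP5G2 had the lowest unadjusted p of the 3, 0.0673 (adjusted p = 0.457 in limma). ATP5I, a membrane subunit at the dimer interface, had the highest SD of the complex (0.23) and ran from 7.21 over 7.73 to 8.18 in HR and from 7.63 over 7.89 to 8.17 in LR, a difference of -0.14 ± 0.10. The other members, among them the gamma subunit ATP5C1 (-0.04) and the peripheral stalk subunit ATP5F1 (0.04), lay between -0.13 and 0.04.

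Of the 6 factors, 4 had higher means in HR, with a median difference of 0.13. NDUFAF4, an assembly factor of complex I (chromosome 1, 64038277 to 64044824), ran from 5.70 over 6.29 to 6.77 in HR and from 5.60 over 5.89 to 6.45 in LR. In 9 of 10 HR arrays the value was above the LR median, HR replicate 1 (5.70) again being the exception, and LR replicate 10 (6.45) lay among the high HR arrays. The difference was 0.35 ± 0.12 (limma, unadjusted p = 0.00886, adjusted p = 0.337), and its unadjusted p stayed under 0.05 in all 20 fits without 1 array. ATP5S, the coupling factor B protein of the ATP synthase (chromosome 1, 180069157 to 180081332), had the highest SD of all members, 0.51, and ran from 5.38 over 6.24 to 6.80 in HR and from 4.90 over 5.80 to 6.63 in LR. LR replicate 1 gave its lowest value and HR replicate 5 its highest. ATP5S differed by 0.45 ± 0.19 (limma, unadjusted p = 0.0272, adjusted p = 0.385), with an unadjusted p under 0.05 in 17 of 20 fits. The complex I assembly factors NDUFAF1 and NDUFAF2 differed by 0.13 and 0.13, NDUFAF3 by -0.15 and ATP5SL by -0.08. NDUFAF2 ran from 5.31 over 5.96 to 6.17 in HR and from 5.53 over 5.81 to 6.10 in LR.

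Other probe sets of the same genes gave a check within each array. Above the level, 12 members had 21 further probe sets, of which 16 had the sign of the brightest one and 5 the other, the latter all of ATP5E and SDHB. The median gap between a further probe set and the brightest was 0.06 in log2 difference. NDUFV3 differed by -0.28 on its brightest probe set and by -0.08 on the next, COX5B by -0.19 and -0.09, and the core subunit NDUFS7 by -0.08, -0.11 and -0.23, the last with an unadjusted p of 0.0369. NDUFC1 and NDUFAF4 have a second probe set each, both below the level, with differences of 0.16 and -0.14. For 36 of the 56 members the platform has 1 probe set and no such check exists, and 10 members, NDUFC1 among them, are read by a shared probe set.

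Members varied together from animal to animal. With the group means taken out, the 1540 pairs of members had a median correlation over the 20 arrays of 0.51, from -0.88 to 0.96, and 67.5% of the pairs were positive. The pairs of all genes had a median of 0.06, with 52.9% positive. The median was 0.58 within complex I, 0.53 within complex IV and 0.59 within complex V, and -0.19 among the factors. The closest pair was COX7A2 and ATP5G2 with 0.96. All of these values share the same arrays and the same normalisation.

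By their correlation with the mean of the other members, a division made after the values were seen and therefore given no test, the members fell into a large and a small set. Of 46 members with a positive correlation, 39 had a lower mean in HR and the median difference was -0.11, while of 10 members with a negative correlation 8 had a higher mean and the median was 0.13. Those 10 were NDUFC1, NDUFB5, NDUFB3, NDUFS4, NDUFS1, UQCRB, NDUFAF1, NDUFAF2, NDUFAF4 and ATP5S, from -0.06 (NDUFB3) to -0.67 (ATP5S). All 4 members that were higher in HR at an unadjusted p under 0.05 are among them, and all 6 lower ones are in the large set. Within the 41 members whose correlation exceeded 0.5 the pairs had a median of 0.73, within the 7 members below -0.4 (NDUFC1, NDUFB5, NDUFS1, UQCRB, NDUFAF1, NDUFAF4 and ATP5S) a median of 0.81, and between these sets a median of -0.61. These 7 include subunits of complexes I and III and factors of complexes I and V, so the sets cut across the complexes. The large set was led by NDUFB2 (0.93), COX6B (0.92) and COX5B (0.92).

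**Figure D3:**
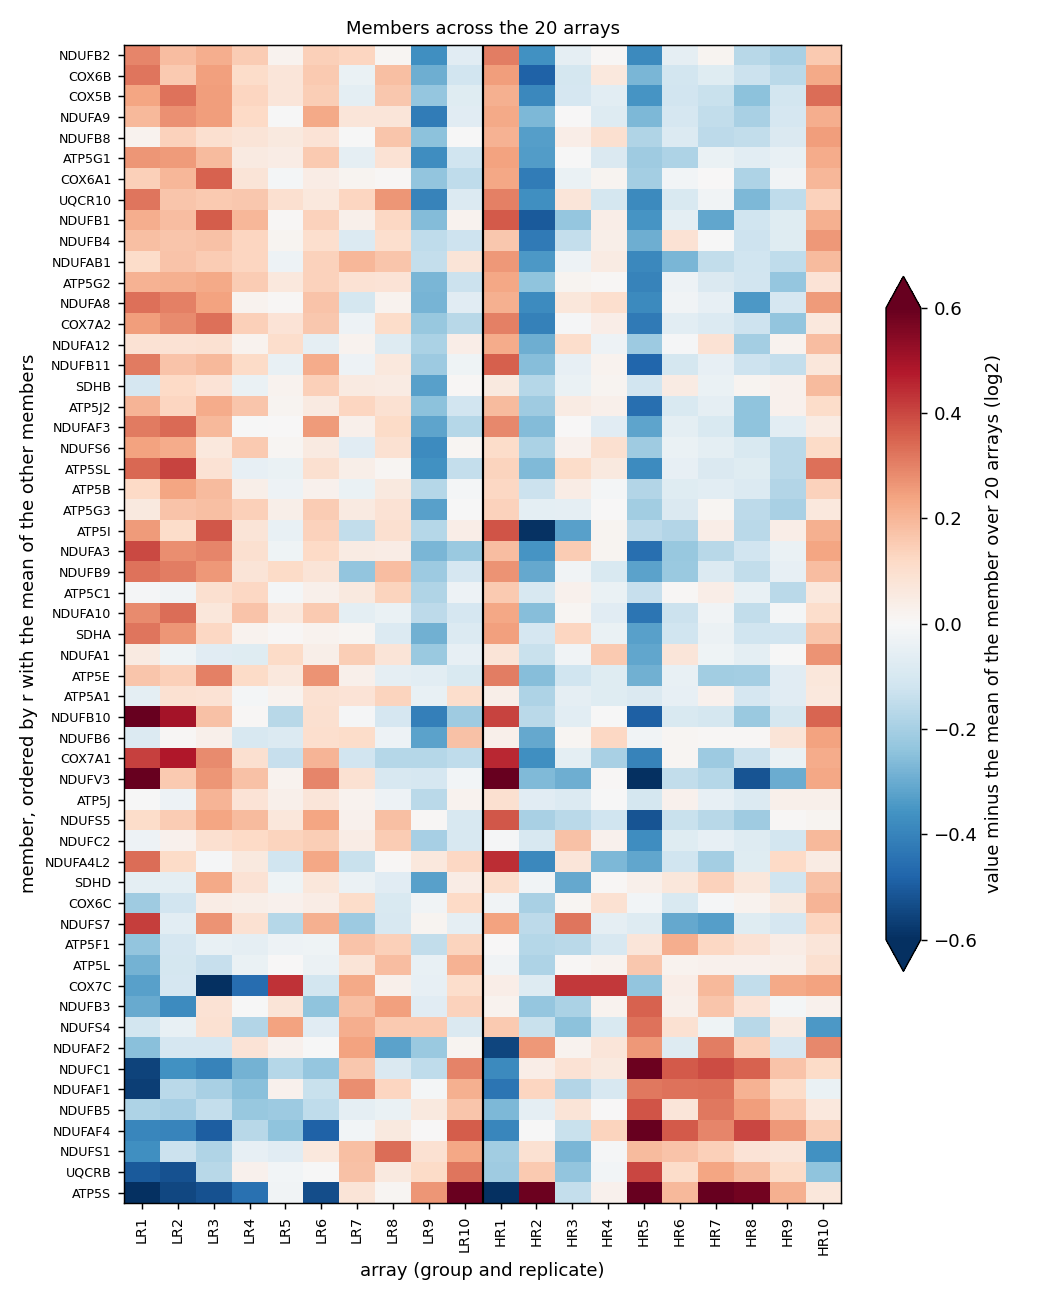
Log2 value of each member minus its mean over the 20 arrays, with LR arrays left and HR arrays right of the line and members ordered by their correlation with the mean of the other members; colours are capped at 0.6 above and below the mean. The 10 bottom rows, from NDUFB3 to ATP5S, have a negative correlation; HR1 resembles LR1 to LR3, and HR5 shows the reverse of LR1.

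Single animals differed in many members at once. The mean over the 56 members ran from 8.58 over 8.75 to 8.91 in HR (8.76 ± 0.10, SD, n = 10) and from 8.61 over 8.83 to 8.87 in LR (8.81 ± 0.07), and 8 of 10 HR arrays were below the LR median. HR replicate 2 (8.58), LR replicate 9 (8.61) and HR replicate 5 (8.64) were lowest and HR replicates 1 (8.91) and 10 (8.91) highest, so both extremes were HR animals. HR replicate 5 gave the lowest value of 20 members and the highest of 7, and HR replicate 1 the highest of 12. For the 10 members with an unadjusted p under 0.05, HR replicate 1 lay nearer to the LR median than to the HR median in all 10, LR replicate 9 nearer to the HR median in 8, LR replicate 10 in 7 and HR replicate 10 nearer to the LR median in 6. By the number in its sample title, HR replicate 1 fell among the LR arrays, below all other HR arrays. LR replicates 8, 9 and 10 had the highest numbers of LR, just below that of HR replicate 2, whereas HR replicate 10 had the highest number of all.

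The member values moved with measures of the whole array. The first principal component of all probe sets tested carried 48.0% of their variance and correlated with the member mean at r = -0.745 (Spearman -0.779, 20 arrays), at -0.755 within HR and -0.676 within LR, and at -0.715 without the 2 arrays farthest from its median. The mean of the 24 most GC-rich background controls, whose probes read nonspecific signal, correlated with it at r = 0.712 (Spearman 0.776), at 0.724 within HR, 0.643 within LR and 0.671 without the 2 farthest arrays. This background was 7.31 ± 0.20 in HR and 7.50 ± 0.20 in LR. Of the 56 members, 31 correlated with it above 0.7 and 6 below -0.7, together 66.1% of the members against 35.1% of all genes. All 10 members with an unadjusted p under 0.05 had a correlation with it between 0.735 and 0.945 in size, positive for the 6 lower and negative for the 4 higher ones, for example 0.845 for NDUFS5 and -0.909 for NDUFC1. With this background as a covariate, no member was higher and 1 was lower at an unadjusted p under 0.05, against 3.58% and 3.35% of all probe sets, and the median difference was 0.0061 instead of -0.08. With the first principal component as a covariate, 4 members were higher and 3 lower, against 7.42% and 6.11% of all probe sets, and the median difference was -0.02. Its part in the differences was not tested beyond this fit.

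**Figure D4:**
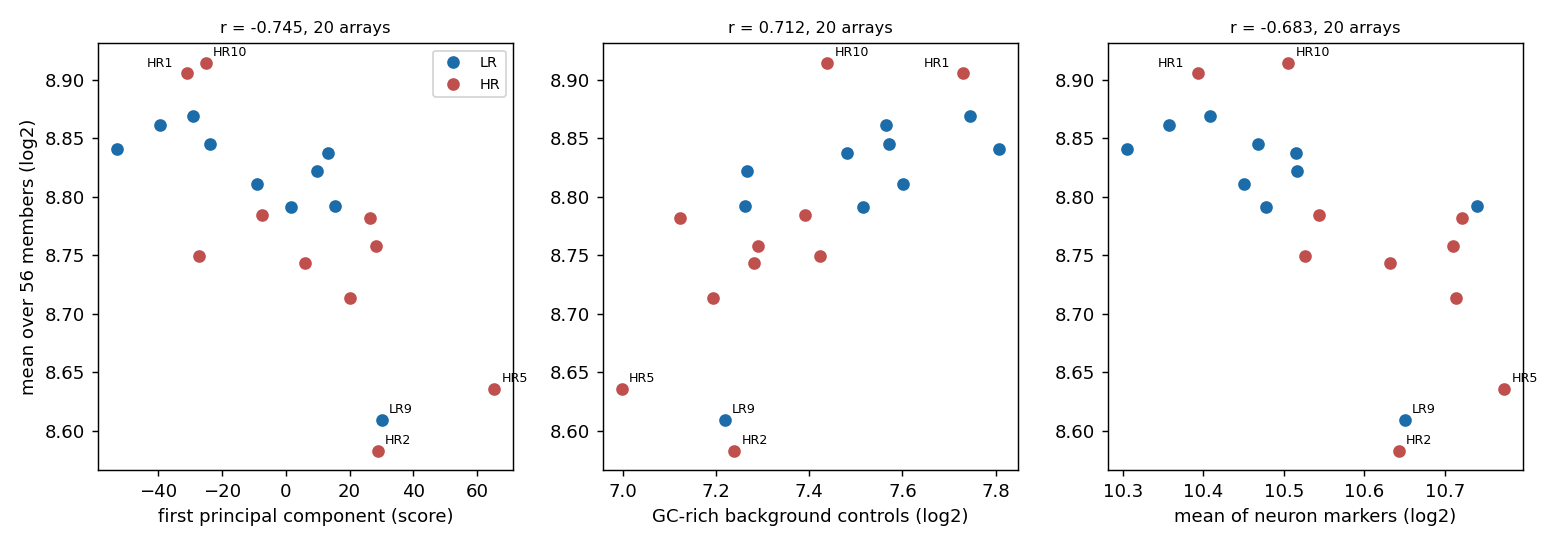
Mean log2 value over the 56 members in each array (vertical axis) against the first principal component, the mean of the GC-rich background controls and the mean of the neuron markers (horizontal axes), LR in blue and HR in red; 5 arrays are named. The correlation is -0.745, 0.712 and -0.683 over the 20 arrays, and LR replicate 9 and HR replicates 2 and 5 lie lowest in each panel.

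The level of the neuron markers moved with the member mean too, in the opposite direction. The mean of 7 neuron markers was 10.6 ± 0.12 in HR and 10.5 ± 0.13 in LR. At an unadjusted p under 0.05 in limma, 2 of the 7 (SNAP25 and NEFM) were higher in HR, against 7.78% of all probe sets. NEFL (0.15), STMN2 (0.15) and SYT1 (0.03) also had higher means in HR, and GRIN1 (-0.10) and RBFOX3 (-0.03) had lower ones. The marker mean correlated with the member mean at r = -0.683 (Spearman -0.765). The correlation was -0.694 within HR, -0.619 within LR and -0.680 without the 2 farthest arrays. With the marker mean as a covariate, no member was higher and 1 lower, against 4.25% and 4.50% of all probe sets, and the median difference was 0.0096. The choroid plexus mean had r = 0.293 (Spearman 0.0737), with 0.641 within HR, -0.0508 within LR and 0.370 without the 2 farthest arrays, and as a covariate it gave 4 higher and 16 lower members, against 12.1% and 8.35% of all probe sets. The number in the sample title, which averaged 2863 ± 109 in HR and 2601 ± 225 in LR, had r = -0.370 (Spearman -0.522), with -0.168 within HR, -0.372 within LR and -0.357 without the 2 farthest arrays, and with it as a covariate no member was higher and 2 were lower, against 1.62% and 1.21% of all probe sets. What share of the differences belongs to these measures was not tested, and the groups differ in several of them at once.

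Genes of the same pathway outside the prefixes were few at an unadjusted p under 0.05 and none passed adjustment in limma. Of 11 electron carriers and neighbouring proteins above the level, 3 were lower and none higher, against 3.74% and 7.78% of all probe sets. ATPIF1, the inhibitor that stops the ATP synthase from running backwards, ran from 9.21 over 9.54 to 9.91 in HR and from 9.57 over 9.74 to 10.03 in LR, a difference of -0.23 ± 0.08 (unadjusted p = 0.0096). ETFB and ETFA are the subunits of the electron transfer flavoprotein, which hands electrons from fatty acid oxidation to ubiquinone, and differed by -0.29 ± 0.11 and -0.19 ± 0.09 (unadjusted p = 0.0138 and 0.0462). Cytochrome c itself (CYCS) and PDSS1 were below the level. None of 14 further assembly factors had an unadjusted p under 0.05; the smallest belonged to TMEM70 (0.13), TTC19 (-0.11) and ACAD9 (-0.13). Of 23 genes of mitochondrial biogenesis and uncoupling, 2 were higher and none lower, against the same 7.78% and 3.74% of all probe sets. PPARGC1A, a coactivator of mitochondrial gene programmes, ran from 6.49 over 6.89 to 7.58 in HR and from 5.66 over 6.52 to 7.06 in LR, a difference of 0.40 ± 0.16 (unadjusted p = 0.0205), and POLG2, the accessory subunit of the mitochondrial DNA polymerase, differed by 0.29 ± 0.12 (unadjusted p = 0.0223). TFB1M, a methyltransferase of mitochondrial ribosomal RNA, differed by 0.20 ± 0.10 (unadjusted p = 0.0643).

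The tricarboxylic acid cycle feeds the chain with NADH and succinate, and pyruvate dehydrogenase, whose genes were listed with it, supplies the cycle. Of 14 genes above the level 7 had lower means in HR, against 55.6% of all 10313 genes, and the median of the list was 0.05. At an unadjusted p under 0.05 in limma, 3 were higher and 1 lower, against 7.78% and 3.74% of all probe sets. DLAT and PDHA1, subunits of the pyruvate dehydrogenase complex and not of the cycle itself, differed by 0.40 ± 0.13 and 0.34 ± 0.13 (unadjusted p = 0.0063 and 0.0173), and IDH3A, a subunit of isocitrate dehydrogenase, by 0.34 ± 0.12 (unadjusted p = 0.0074). In each of these 3, 9 of 10 HR arrays were above the LR median. OGDH, the first enzyme of the oxoglutarate dehydrogenase complex, differed by -0.25 ± 0.10 (unadjusted p = 0.0240). PDHB was below the level.

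Ribosomal protein genes, which encode the protein part of the translation machinery, were set beside the members. Of 55 genes of the mitochondrial ribosome, 35 had lower means in HR, 3 were higher and 6 lower at an unadjusted p under 0.05, and the median was -0.08. Of 53 genes of the cytosolic ribosome, 49 had lower means, 19 were lower and none higher at an unadjusted p under 0.05, and the median was -0.13. Over all probe sets, 7.78% were higher and 3.74% lower at this threshold. Lower means made up 63.6% of the mitochondrial list and 92.5% of the cytosolic list, against 55.6% of all 10313 genes. The median of the members, -0.08, lay at that of the mitochondrial list and above that of the cytosolic list, and no test between the lists was made.

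**Figure D5:**
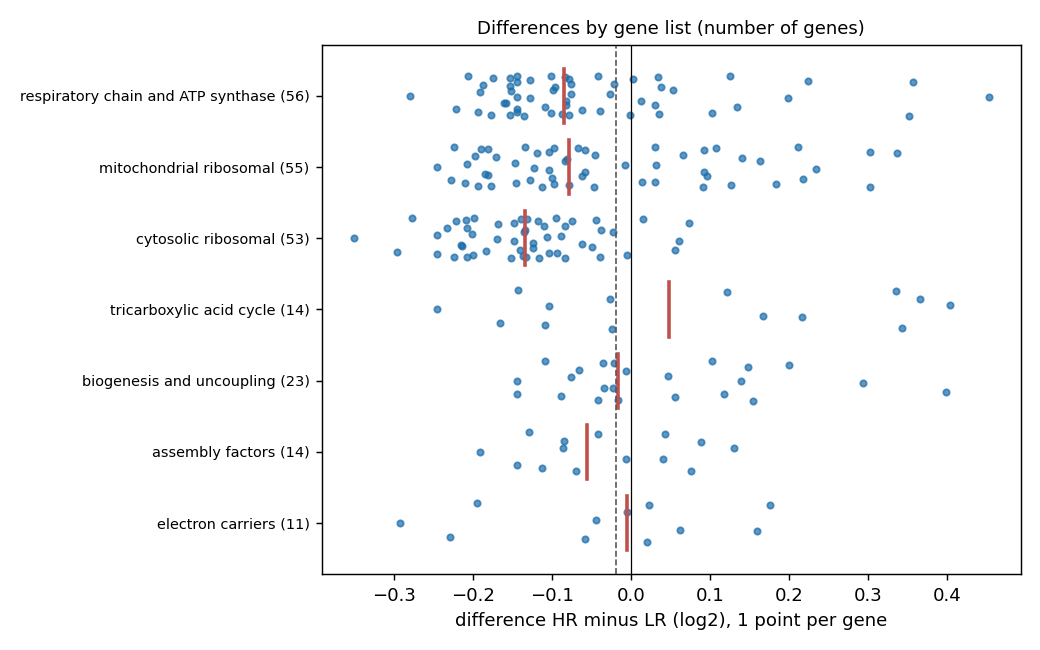
Log2 difference between HR and LR for each gene of the members and of 6 compared lists (number of genes in brackets); red bars mark the median of a list and the dashed line the median of all 10313 genes (-0.02). The medians are -0.08 for the members, -0.08 for the mitochondrial and -0.13 for the cytosolic ribosomal proteins and 0.05 for the tricarboxylic acid cycle list.

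All 56 members matched a gene of the RefSeq annotation of Sscrofa11.1 by symbol. They lie on 18 chromosomes, with 6 each on chromosomes 1 and 6 and 5 each on chromosomes 5 and 13. ATP5G1 is the only member on chromosome 12. The 10 members with an unadjusted p under 0.05 are spread over 7 chromosomes, with 2 on each of chromosomes 1, 3 and 13 and the others on separate ones.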

How the data were processed

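Measured was mRNA in hippocampus of 10 HR and 10 LR pigs, 1 array per animal. Per the study's methods and the submitters' processing notes, the authors processed scans with GCOS 1.1.1 and normalised them by robust multichip averaging, and the deposited table holds the resulting log2 values, which set all arrays to a common distribution and so give levels relative to it. Its probe sets are not filtered by detection. All 20 columns were used and 0 were left unused. Depth does not apply to arrays, whose number limits the precision.

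Of 47845 probe sets, 123 controls were left out, and 23861 of the remaining 47722 with a mean at or above the median of means (5.53) were tested two-sided with limma 3.58.1 in R 4.3.3, without covariate and with Benjamini-Hochberg adjustment over all of them at 0.05. The fit was tested on simulated data. Genes with full values are the 3 members of each complex with the smallest unadjusted p, the brightest and the most variable ones, isoforms, those beside the level and, added after the values were seen, all with an unadjusted p under 0.05; for pathway lists the 3 smallest p. Members and lists were chosen with earlier results of these data known. From the 61 genes taken by ribosomal protein symbols, the ribosomal protein S6 kinases and RPS19BP1 were removed after the values were seen, which left 53 and moved the median from -0.12 to -0.13. Alternatives were 5 covariates (title number, GC-rich background, choroid plexus and neuron means, first principal component), array weights, a trended robust prior, an exact Wilcoxon test, no level filter, centred arrays, the mean of probe sets and leaving out each array.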

Additional observations from a re-analysis of the deposited data

Results flagged for a closer look

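In 60 groups of 10 arrays tested, 5 held a value whose gap to its neighbour was a larger share of the range of the group than Dixon's critical value, which chance passes in about 1 in 20 groups. LR replicate 9 accounted for 4 of the 5. It was the lowest LR array for NDUFB8, at 10.1 with the next at 10.4, for SDHB, at 9.98 with the next at 10.2, for ATP5G3, at 9.13 with the next at 9.45, and for the mean over the 56 members, at 8.61 with the next at 8.79. HR replicate 1 was the lowest HR array for NDUFAF2, at 5.31 with the next at 5.75. The groups share the same arrays, and the mean over the 56 members contains NDUFB8, SDHB and ATP5G3. The 4 values of LR replicate 9 are therefore not independent of each other.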

How the results depend on the processing

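Among the members past the adjusted threshold, array weights in limma gave 4 (NDUFAF4, NDUFB5, NDUFC1 and NDUFS5) instead of 0, along with 947 of all probe sets (3.97%). None of the other alternatives run gave any. Members higher in HR at an unadjusted p under 0.05 numbered 0 instead of 4 with the title number, the GC-rich background or the neuron mean as a covariate (1.62%, 3.58% and 4.25% of all probe sets). The lower members, 6 without a covariate, are given with the share of all probe sets lower in the same fit. With covariates they numbered 2 with the title number (1.21%), 1 with the GC-rich background (3.35%), 1 with the neuron mean (4.50%), 16 with the choroid plexus mean (8.35%) and 3 with the first principal component (6.11%). They numbered 20 with array weights (8.82%), 8 with a trended robust prior (3.72%), 8 with centred arrays (4.47%) and 3 with the mean of the probe sets of a gene (3.80%). When 1 array was left out they numbered from 2 to 18 (2.50% to 6.95%).

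Directions of named members turned as follows, the cause not being tested. With the GC-rich background as a covariate the difference was 0.0228 for NDUFB8, 0.0750 for SDHA, 0.0462 for SDHB, -0.0918 for UQCRB, 0.0419 for COX6A1, 0.00398 for ATP5B, 0.0574 for COX7A1 and 0.0413 for ATP5G1. With the neuron mean it was 0.0283 for NDUFB8, 0.0914 for SDHA, 0.0474 for SDHB, -0.125 for UQCRB, 0.0474 for COX6A1, 0.00892 for ATP5B, 0.0621 for COX7A1 and 0.0520 for ATP5G1. With the title number it was 0.00631 for NDUFV3, 0.108 for SDHA, -0.128 for UQCRB, 0.00656 for COX6A1, 0.0687 for COX7A1, 0.0308 for ATP5G1 and -0.0624 for ATP5S. With the first principal component it was 0.0299 for SDHA, 0.0328 for SDHB and -0.0277 for UQCRB. The mean of its probe sets gave 0.0844 for ATP5E. Without 1 array, SDHD ranged from -0.00462 to 0.0657 and SDHB from -0.0372 to 0.0182.

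No paired analysis was possible because the replicate numbers follow accession order and pair no animals. The covariates follow the members to different degrees and have unequal means in the groups, so what belongs to them and what to coping pattern cannot be told apart. Array signal is relative to a common distribution, and the median standard error of a difference was 0.09.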
